A study of Homo sapiens with 10 samples.

Results

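Intron positions at which more than 40% of the reads carried the edited base were described in the human erythroid progenitor line HUDEP-2, an immortalised line, after expression of deaminase fusions. ADARcd, the ADAR catalytic domain that converts adenosine to inosine (sequenced as G), was joined to FAM46C, a non-canonical poly(A) polymerase, or to GFP. The fusions TRE-GFP-7aa-ADARcd, TRE-FAM46C-7aa-ADARcd, TRE-FAM46C-27aa-ADARcd, TRE-FAM46C-47aa-ADARcd and TRE-FAM46C-74aa-ADARcd differ in bait and in linker length, and each had 1 library of poly(A) RNA. All 5 were induced with doxycycline, for 48 h per the labels and for 24 h per the text of the series, a conflict that was not resolved. No library without a deaminase and no genomic DNA were analysed here, and none of the values below has a replicate check. Each position was selected because, summed over the 5 libraries, its edited reads exceeded 40% of its reads, and because it lay within a gene but outside the exons of every basic transcript of GENCODE release 29 (GRCh38). This gave 5813 of 16768 sites of the ADARcd tables, or 65.5% of the 8877 intron sites. The other 3064 intron sites lay at 40% or less. Among 7533 exon sites, 684 (9.08%) lay above 40%. These shares follow from the selection and are given without a test.

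Adenosine deaminases of this family act on double-stranded RNA. In human introns such duplexes form largely where inverted Alu repeats, which derive from the 7SL RNA, pair with each other, so that many adenosines close together are each edited in part of the molecules. The enzyme is known to disfavour a G just before the edited adenosine and to favour a G just after it. A base that differs from the reference in the DNA of a cell line is instead read at a level set by the share of gene copies that carry it, and does so in every library. RNA reads alone hold both kinds of position, and the sources of the sites listed here were not tested.

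Reference sequence could be read at 242 of the 5813 sites (4.16%), those that lie in an exon of a non-basic GENCODE 29 transcript. Of these, 6 windows of 25 nt are shown, on the strand of that transcript and with the site in capitals, because the results below divide sites by whether all reads or about 50% of reads were edited. The first 3 sites had every read edited.

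TMEM116, chr12:112010669-112010693, minus strand: cagccagttgcaAaaaggacctacc

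KNTC1, chr12:122602883-122602907, plus strand: tgaaggtaatggAttaaaacattgt

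TFAP2A, chr6:10412812-10412836, minus strand: gccgaggagaggAccagtgcagcga

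The next 3 were edited in more than 40% and at most 60% of reads. The pair in C11orf58 are adjacent bases.

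C11orf58, chr11:16756845-16756869, plus strand: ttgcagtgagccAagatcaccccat

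C11orf58, chr11:16756846-16756870, plus strand: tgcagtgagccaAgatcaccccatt

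CLN6, chr15:68218379-68218403, minus strand: cttcatatccttAgctctatgactt

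The TMEM116 site was edited in 10 of 10 reads, with an exact 95% interval of 69.2% to 100%, and its nearest other site of the tables was 6022 nt away. In KNTC1, which encodes a kinetochore protein, all 8 reads were edited and the nearest other site was 64554 nt away. The TFAP2A site had 7 of 7 reads edited. The 2 adjacent C11orf58 sites were each edited in 9 of 19 reads, with intervals of 24.4% to 71.1%. CLN6, which encodes a protein of the endoplasmic reticulum, had 6 of 13 reads edited and another site 6 nt away. These 6 windows do not stand for their classes, whose shares of isolated and 7SL-like sites are given below.

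The sites were covered by few reads. Pooled over the 5 libraries, the median was 3 reads per site and the range 2 to 82, against a median of 15 at the other intron sites and 134 at exon sites. Every listed site had 2 or more edited reads in some library. An intron site with 2 to 4 pooled reads was therefore above 40% by construction, and all 4123 intron sites of that depth, 70.9% of the 5813, were selected. With 5 to 9 reads, 1423 of 2311 intron sites (61.6%) were selected, with 10 to 19 reads 240 of 1252 (19.2%), with 20 to 49 reads 24 of 788 (3.05%) and with 50 or more 3 of 403 (0.744%). At 4552 sites (78.3%) the library with the most edited reads had exactly 2 of them. Coverage was uneven between libraries. The 5813 sites had 9703 reads in the GFP library and 10168 in the 7 aa FAM46C library, but 1978, 1393 and 1403 reads in the 27, 47 and 74 aa libraries. Over all sites of the ADARcd tables the reads were 479108, 522608, 203555, 163193 and 160157 in the same order, a smaller contrast. The library itself had 2 or more edited reads at 2976, 2943, 341, 199 and 217 of the selected sites. In the 27 aa library 4480 sites (77.1%) had no read at all.

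The pooled level fell with depth, in part by construction. A listed site needed 2 edited reads in some library, so one with 2 pooled reads was always fully edited. All reads were edited at 3533 sites (60.8%), more than 60% but not all at 1127 (19.4%), and more than 40% up to 60% at 1153 (19.8%). Among sites with 2 to 4 reads, 3055 had every read edited and 341 lay at 60% or less. Among those with 10 to 19 reads the order was turned, with 32 at 100% and 160 at 60% or less. At least 10 reads covered 267 sites, of which 240 had 10 to 19 reads. At 219 of the 267 (82.0%) the exact 95% interval of the pooled level held 50%, at 42 (15.7%) the level was 90% or more, and 6 were in neither class. The same reads had selected the sites above 40%, and an interval from 10 to 19 reads holds 50% over a broad range of levels. The 82.0% follows in part from this and is a description. The intervals are wide at this depth, and they reflect counting error alone. Picard is among the submitters' tools, but whether PCR copies of a molecule were removed is not given.

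The site with the most reads, at position 8392393 of chromosome 21 in the lincRNA gene FP236383.1, was edited in 33 of 82 reads. It had 11 of 27 edited reads with GFP, 10 of 27 with 7 aa, 5 of 11 with 27 aa, 5 of 8 with 47 aa and 2 of 9 with 74 aa FAM46C. The 5 levels lay between 22.2% and 62.5%, with the extremes in the shallow libraries. At chromosome 6, position 10895928, in AL024498.2 and within the span of SYCP2L, the edited reads were 10 of 22, 15 of 25, 3 of 6, 2 of 6 and 2 of 6 in the same order, 49.2% of 65 in all. ELOVL5, which encodes an elongase of polyunsaturated fatty acids, had a site at chromosome 6, position 53293434, with 6 of 12, 8 of 14, 1 of 2, 4 of 4 and 0 of 1 edited reads. In FADS2, a desaturase of the same pathway, 13 of 26 reads were edited, 3 of 8 with GFP and 6 of 12 with 7 aa FAM46C. In the 2 deepest libraries these 4 sites lay between 37.0% and 60%.

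A separate set had every or nearly every read edited in each library. At chromosome 12, position 56730811, in AC117378.1 and within NACA, which encodes a subunit of the nascent polypeptide-associated complex, all 47 reads were edited: 15 with GFP and 19, 6, 5 and 2 with the 4 FAM46C fusions by linker length. In EYA4, a transcriptional coactivator and phosphatase, all 36 reads were edited at chromosome 6, position 133528651, 11 with GFP and 14, 3, 7 and 1 with FAM46C. FKBP4, an HSP90 co-chaperone, had 23 of 23 edited reads, spread as 6, 6, 7, 2 and 2. The EYA4 site was 13317 nt and the FKBP4 site 12488 nt from the nearest other site. The AC117378.1 site had one 34 nt away, and a further selected site there, at position 56730696, had 22 of 28 edited reads. In SYCP2L, a relative of a synaptonemal complex protein, 26 of 27 reads were edited at position 10978007 of chromosome 6, where the exception was 1 of 10 reads with GFP, and 23 of 23 at position 10977434.

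Some sites in genes with close copies are given apart. No search for copies of the other named loci was made, FP236383.1 among them. In SMG1P6 at chromosome 16, position 29441707, 10 of 14 reads were edited with GFP, 0 of 4 with 7 aa and 2 of 8 with 27 aa FAM46C. In SMN1, which encodes the survival of motor neuron protein, 5 of 7 reads were edited with GFP, 0 of 6 with 7 aa and 3 of 4 with 74 aa FAM46C at chromosome 5, position 70947682. In CYP4F26P the site at chromosome 9, position 33595906, had 4 of 11, 13 of 32, 2 of 3 and 5 of 6 edited reads in the 4 libraries that covered it. SMG1P6, SMN1 and CYP4F26P have copies elsewhere in the genome, so the placement of their reads is uncertain. The 3 sites with at least 50 reads that were selected lay at 40.2% (FP236383.1), 46.2% (CYP4F26P) and 49.2% (AL024498.2). The nearest ones not selected were AC010522.1 at 34.6% of 52 reads, ELOVL5 at 32.5% of 83, AL024498.2 at 26.1% of 111, CYP4F26P at 24.6% of 57 and AL513165.1 at 24% of 50.

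**Figure D1:**
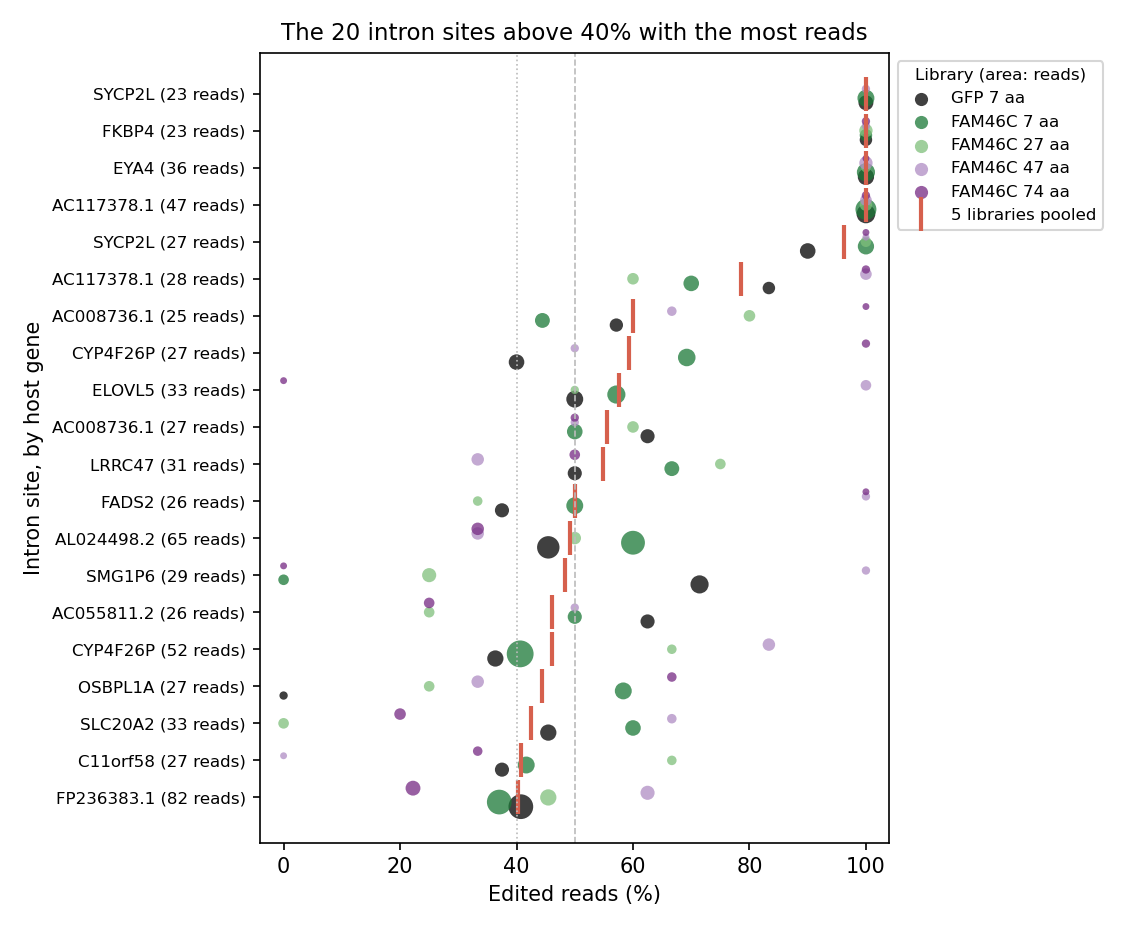
Edited reads in percent (x axis) in each library at the 20 intron sites above 40% with the most reads, named by host gene with their pooled reads, where dot area follows the reads of the library and the bar marks the pooled value. The 4 sites at the top lie at 100% in every library that read them, and libraries with few reads scatter most.

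Whether the level was the same in every library could be asked of few sites. Only 9 had at least 10 reads in at least 2 libraries. Of these, 3 were at 90% or more in each such library (33.3%, exact 95% interval 7.49% to 70.1%): AC117378.1, EYA4 and SYCP2L. At the other 6 (66.7%, 29.9% to 92.5%) the interval held 50% in each such library. They lay in FP236383.1, AL024498.2, ELOVL5, SLC20A2 and, at 2 positions, CYP4F26P. The placement of the CYP4F26P reads is uncertain, as given above. No site fell outside both classes, and with 9 sites that share could still reach 33.6%. With a minimum of 5 reads 84 sites could be read, of which 12 (14.3%) were at 90% or more throughout, 70 (83.3%) had intervals holding 50% throughout and 2 were in neither class. The 12 included P2RX5-TAX1BP3 with 21 of 21, EYS with 17 of 17 and ARHGEF1 with 16 of 17 edited reads. The 2 in neither class were the SMN1 site and a further one in P2RX5-TAX1BP3, edited in 6 of 6 reads with GFP and 3 of 7 with 7 aa FAM46C. An exact interval from 5 reads holds 50% whatever the number of edited reads. A site with 5 reads in each such library could therefore not fall outside both classes. The 83.3% follows in part from this and is a description.

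To read the level from reads that had no part in the selection, sites were selected on 4 libraries and read in the one left out. Sites above 40% in the other 4 libraries had 56.5% edited reads in the GFP library (2513 of 4446 reads, exact 95% interval 55.1% to 58.0%). The corresponding shares were 52.8% of 5197 reads (51.4% to 54.1%) with 7 aa, 55.6% of 1658 with 27 aa, 55.0% of 1213 with 47 aa and 55.8% of 1225 with 74 aa FAM46C. Intron sites at 40% or less in the other 4 libraries had 7.60%, 5.54%, 6.31%, 5.84% and 6.12% in the same order. The GFP and FAM46C libraries thus gave like values for the selected sites, within 3.8 percentage points of each other. Over all members, with the selecting reads included, the edited share was 80.3% with GFP and 78.2%, 72.3%, 69.3% and 71.0% with FAM46C, higher than the left-out shares in all 5 libraries.

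The left-out level depended on the level and depth in the other 4 libraries. Where all reads of the others were edited, 81.3% of GFP reads and 78.8%, 86.2%, 85.6% and 84.9% of FAM46C reads were edited in the library left out. Split by depth and summed over the 5 libraries, that share was 70.3% where the others held 2 reads, 85.6% with 3 to 4, 94.7% with 5 to 9 and 98.8% with 10 or more (241 of 244 reads, 96.4% to 99.7%). Where the others were above 40% and up to 60%, the left-out share was 24.4% with 3 to 4 reads, 31.1% with 5 to 9 and 40.9% with 10 or more (525 of 1285 reads, 38.2% to 43.6%). Both classes were read at higher levels where the others held more reads. At 10 or more reads the interval of the sites at 40% to 60% lay below 50%. That mean can hold sites at several levels. Sites between 60% and 100% reached 57.9% at 10 or more reads.

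The sites were also selected on some fusions and read in others. Of sites selected on the 27, 47 and 74 aa FAM46C libraries alone, 887 in number, 43.7% of 1657 reads were edited with GFP (41.3% to 46.1%) and 43.0% of 2035 with 7 aa FAM46C (40.8% to 45.2%). At 478 of these sites read in both 7 aa libraries, the level with FAM46C was higher than with GFP at 108, lower at 126 and equal at 244. Sites selected on the 2 libraries with a 7 aa linker had 55.4%, 53.6% and 54.7% edited reads with 27, 47 and 74 aa FAM46C.

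No selected site was called different between a FAM46C fusion and GFP. In a two-sided Fisher's exact test per site, adjusted by Benjamini-Hochberg over all ADARcd sites with at least 10 reads in both libraries, 1.42% of 6784 sites were called for the 7 aa fusion, 0.462% of 5198 for 27 aa, 0.237% of 4634 for 47 aa and 0.131% of 4573 for 74 aa. Of the selected sites 9, 1, 0 and 0 could be tested, and none had an unadjusted p under 0.05. With the 7 aa fusion 6 of the 9 were higher, 1 lower and 2 equal. The widest gap was in CYP4F26P at chromosome 9, position 33582013, with 4 of 10 edited reads with GFP and 9 of 13 with FAM46C (Fisher's exact p = 0.222, adjusted p = 1). The AL024498.2 site was 14.5 percentage points higher with FAM46C (Fisher's exact p = 0.387). At this depth a difference of that size was not detectable. The 4 comparisons share the GFP library, and the test compares libraries, not conditions. Among all intron sites 689, 232, 169 and 167 were tested and none was called.

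In the authors' deposited tables of sites with a p-value per fusion, 2 of the 36 sites for the 7 aa fusion were selected sites, in BLM and LINC00884, with a lowest deposited p of 0.0143. For the 27 aa fusion 1 of 228 was, in CDK15, and for the 47 and 74 aa fusions 0 of 366 and 0 of 364. Selected sites made up 34.7% of all 16768 sites of the ADARcd tables. Intron sites of any level numbered 12, 18, 24 and 13 in the lists for 7, 27, 47 and 74 aa. Any minimum of reads behind these lists is not given, and the part that the low depth of the selected sites played was not tested.

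Spacing along the gene differed with the level and with depth. Another site of the tables lay within 100 nt of 864 selected sites (14.9%) and of 1446 other intron sites (47.2%). These sets differ in depth. With at least 20 reads the shares were alike, 16 of 27 selected (59.3%) and 700 of 1164 other intron sites (60.1%). Among selected sites of any depth the share was 7.44% where all reads were edited (263 of 3533), 22.2% between 60% and 100%, and 30.4% (351 of 1153) at 60% or less. Median distances to the nearest site were 7990 nt for fully edited sites, 1600 nt at 40% to 60% and 125.5 nt for other intron sites. With at least 10 reads, 5 of 42 sites at 90% or more had a neighbour within 100 nt (11.9%, 3.98% to 25.6%), against 84 of 180 at 40% to 60% (46.7%, 39.2% to 54.2%), 23 of 45 between 60% and 90% (51.1%) and 1160 of 2176 other intron sites (53.3%, 51.2% to 55.4%). At this depth the intervals of the sites at 40% to 60% and of the other intron sites overlapped, and the interval of the sites at 90% or more lay below both. Sites share genes and repeats and are not independent, so the intervals are descriptions.

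**Figure D2:**
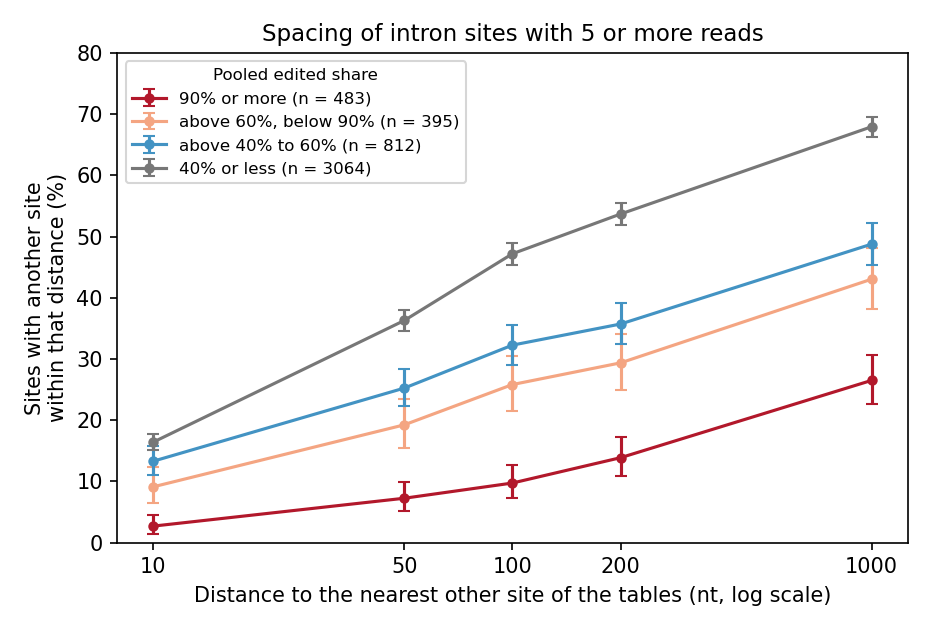
Share of intron sites in percent (y axis) with another site of the ADARcd tables within a given distance (x axis, log scale), for sites with 5 or more pooled reads by pooled edited share, with exact 95% intervals. At 100 nt the share is 9.73% for sites at 90% or more, 32.3% at 40% to 60% and 47.2% at 40% or less.

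At the sites with reference sequence, the flanking bases were compared by level. On the strand of the transcript the reference base was A at 220 of 242 and T, the complement of A, at 22, and it was never C or G. Windows that aligned to 7SL RNA made up 30.6% (74 of 242) for selected sites and 67.4% (221 of 328, 62.0% to 72.4%) for other intron sites. A window without such an alignment is not shown to lie outside an Alu repeat. Within the selected sites, windows that aligned were 21.0% (25 of 119, 14.1% to 29.4%) where all reads were edited and 41.4% (29 of 70) at 40% to 60%. With at least 5 reads, which all other intron sites had, such windows were found at 35 of 98 selected sites (35.7%). At that depth they were 4 of 23 at 90% or more, 10 of 28 between 60% and 90% and 21 of 47 at 40% to 60%. A G preceded the edited A at 16.8% of fully edited sites (18 of 107, 10.3% to 25.3%). It did so at 6.31% of selected sites below 100% (7 of 111, 2.57% to 12.6%) and at 6.41% of other intron sites (20 of 312, 3.96% to 9.73%). The first 2 intervals overlap, and most fully edited sites had fewer than 5 reads. With at least 5 reads a G preceded 4 of 22 sites at 90% or more, 2 of 25 between 60% and 90% and 4 of 43 at 40% to 60%. A G followed it at 31 of 107 fully edited sites, 39 of 111 selected sites below 100% (35.1%) and 148 of 314 other intron sites (47.1%). These windows come from exons of non-basic transcripts and need not stand for the sites without sequence.

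The 5813 sites lay in 3193 host genes. Of these, 1902 (59.6%) held 1 selected site, 708 held 2, 169 held 5 or more and 17 held 10 or more. Only 700 hosts (21.9%) also held an intron site at 40% or less. Protein-coding genes hosted 5170 sites (88.9%), lincRNA genes 235, antisense genes 121 and pseudogenes 188 (3.23%), where pseudogenes hosted 6.23% of the other intron sites. More than 1 gene spanned 979 sites (16.8%), which cannot be assigned to either gene since the labels give no strand. In the counts above such a site went to a protein-coding gene where one was present. The hosts were long, with a median of 59775 nt against 40992.5 nt for hosts of other intron sites. The median distance to an exon was 2271 nt, and 3.27% of selected sites lay within 100 nt of an exon.

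Most of the 17 genes with 10 or more sites held mainly fully edited ones. Their median depth was 2 to 7 pooled reads per site, and a fully edited site can rest on 2 reads. RELN, which encodes the secreted glycoprotein reelin, had 24 sites, of which 20 were fully edited, with 69 of 76 reads edited and no other intron site. WDPCP, a gene of ciliogenesis and planar cell polarity, had 22 sites, and all 95 of their reads were edited. LINC01033 had 16 sites with 57 of 57 reads edited, and BCKDHB, a subunit of the branched-chain keto acid dehydrogenase, 11 sites with 50 of 50. SYCP2L had 17 sites, 15 of them fully edited, with 145 of 150 reads edited. MIR4435-2HG had 18 sites (13 fully edited), SLC25A21 16 (10), XACT 15 (14), PVT1 14 (7), EVA1C 13 (12), AL031315.1 12 (10), LINC01344 10 (6) and SLC14A1, the urea transporter of red cells, 11 (7). CCND3, a cyclin of the cell cycle, had 10 (8). Another gene also spanned all 11 sites of SLC14A1, all 12 of AL031315.1 and 10 of the 18 of MIR4435-2HG. It was so for 2 sites of SLC25A21 and 1 of FTX as well. These sites cannot be assigned to the named gene alone. In FTX 4 of 10 were fully edited, and 6 of 10 had another site within 100 nt. In 2 of the 17 genes most sites lay at 40% to 60%. TPST2, a protein-tyrosine sulfotransferase, had 7 of 11 there, with 55 of 87 reads edited and none within 100 nt of another site. ALG8, a glucosyltransferase of N-glycan assembly, had 7 of 10 there, with 30 of 49 reads edited, and 6 of its 10 sites had another within 100 nt.

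Stretches of selected sites along the chromosome differed in level. Joining selected sites with gaps of at most 20000 nt, the stretch with the most sites ran on chromosome 6 over 89170 nt (10895928 to 10985097) through AL024498.2, SYCP2L and ELOVL2. It held 21 sites, of which 17 were fully edited, with 210 of 253 reads edited, and 35 other intron sites. In WDPCP 19 sites over 93636 nt (chromosome 2, 63244131 to 63337766) had 81 of 81 reads edited, with 1 other intron site among them. LINC01033 had 16 such sites over 36513 nt on chromosome 5 with no other intron site. TPST2 had 11 over 38512 nt on chromosome 22, with 55 of 87 reads edited (63.2%), 3 sites fully edited and 7 at 40% to 60%.

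Close clusters were short by comparison. With gaps of at most 100 nt, 5124 selected sites stood alone, 261 runs held 2, 42 held 3, 5 held 4, 3 held 5 and 1 held 6. The run of 6 was in ALG8, over 167 nt of chromosome 11 from 78135103, with 20 edited reads of 36. Runs of 5 were in NPIPB5, CRYBB2P1 and NSUN6, and runs of 4 in C11orf58, NPIPB3, FTX, CCT3 and MAP4K3. In C11orf58, over 136 nt of chromosome 11 from 16756723, the 4 sites were edited in 37 of 82 reads, and 3 less edited sites within 100 nt of them in 12 of 70. This run holds the adjacent C11orf58 pair shown above. In CDKAL1 3 sites over 69 nt had 28 of 28 reads edited. NPIPB3 and NPIPB5 belong to a family of near-identical copies, so their reads are uncertain.

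Gene lists for this cell type and enzyme held few of the sites. Known targets of endogenous ADAR hosted 23 selected sites in 13 of 38 genes, 9 of them fully edited (39.1%, beside 60.8% over all selected sites). CDK13, a transcription kinase, had 6 with 15 of 21 reads edited, MDM4, a regulator of p53, 4 with 12 of 21, and BLCAP 2 with 6 of 9. Erythroid genes hosted 28 in 14 of 49, of which 14 were fully edited (50%). ANK1, the ankyrin of the red cell membrane, had 6 with 23 of 30 reads edited, and ADD2, the beta subunit of the membrane-skeleton protein adducin, 3 with 11 of 19. Genes of DNA replication and repair hosted 55 in 24 of 70, with 34 fully edited (61.8%). FANCA had 7 with 19 of 21 reads edited, BRCA1 6 with 17 of 21 and the checkpoint kinase gene ATR 4 with 20 of 30. Splicing factor genes hosted 22 in 14 of 62, HLA and antigen presentation genes 4 in 2 of 25 and small RNA host genes 6 in 4 of 26. Zinc finger genes named ZNF hosted 91 in 57 of 515, with ZNF346 at 18 of 34 reads edited over 5 sites. Known targets held 0.396% of selected sites and 0.261% of other intron sites. In the same order, the shares were 0.482% and 1.24% for erythroid genes and 0.946% and 0.783% for replication and repair genes. For splicing factor genes they were 0.378% and 0.653%, and for HLA and antigen presentation genes 0.0688% and 0.0326%. Small RNA host genes held 0.103% and 0.294%, and ZNF genes 1.57% and 1.99%. No enrichment was tested for any list.

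Markers of the cell line were read from all ADARcd sites. Of 15 erythroid markers 8 held a site, with 3113 reads in all, mainly in ALAS2 (2417), the erythroid enzyme of haem synthesis, and SLC4A1 (501), the red cell anion exchanger. None of 4 T cell and 4 myeloid markers held one. CD79A of B cells had 4 reads, EPCAM of epithelia 11 and ITGA2B of megakaryocytes 503. A gene without a site in the tables is not shown to be silent.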

How the data were processed

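For each of the 5 ADARcd libraries the authors deposited read counts per site, split into counts with the reference base and counts with the edited base, without normalisation. Per the submitters' processing notes, HISAT2 2.2.1, SAMtools 1.18, Picard 2.27.1 and GRCh38 were used, with no role or order. The choice of sites and any limit on reads per site are not given in the sources used here. The authors also deposited, per fusion, a list of sites with a p-value each. Its other columns of per-sample values, 48 in all, match no sample label and were not used.

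Counts were summed per site over the 5 libraries, and sites were placed with GENCODE release 29. A site in several genes was given to 1 host, protein-coding first, then the longest. Levels are percents of reads with exact Clopper-Pearson 95% intervals (SciPy 1.17.1). Where reads were summed over sites, these intervals treat all reads as independent and are descriptions. Fusions were compared with GFP by Fisher's exact test per site, adjusted by Benjamini-Hochberg, at a threshold of 0.05, tested on simulated data. Windows of up to 150 nt on each side were aligned to RN7SL1 with BLAST 2.17.0 (e-value 1e-05). Each fusion had 1 library, and linkers were never averaged. Host genes are named when they held the deepest sites, most sites, longest runs or most sites of a list. No selected position was in the tables of the APOBEC1 fusions, also of this series. The sites, gene lists and tests were chosen with earlier results of these data known. The read sums in left-out libraries, selections on other baits, 7SL alignment, pooled intervals at 10 reads, stretches and shown sequences were chosen after these values were seen. Some sequence windows are not reported here.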

Additional observations from a re-analysis of the deposited data

How the results depend on the processing

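The number of selected sites was 5813. It was 6248 and 5634 with thresholds of 35% and 45%, 5571 with exons of all transcripts, 4564 to 5805 without 1 library in turn, 267 with at least 10 pooled reads and 27 with at least 20. The share at 90% or more in every library read at depth was 33.3%, and 0% with at least 20 reads (2 sites) or in at least 3 libraries (1 site), where the share whose interval held 50% was 100%. Without 1 library these shares were 0% to 37.5% and 62.5% to 100%. The 0% and 100% came without the 7 aa FAM46C library, with 1 site left, and without GFP no site was left. Sites with a neighbour within 100 nt made up 14.9% of selected sites, 11.3% within 50 nt, 17.7% within 200 nt and 59.3% with at least 20 reads. With at least 20 reads the share within 100 nt was 60.1% for other intron sites. No selected site was called different with at least 5 or 20 reads per library, where 78 and 2 were tested for the 7 aa fusion and 1 of the 78 had an unadjusted p under 0.05. By size alone, over 20 percentage points, 1 of 9 differed. For the 47 and 74 aa fusions no selected site had 10 reads in both libraries, and at 5 reads 7 and 5 were tested. In left-out libraries the median per site, with at least 20 reads in the other 4 and 10 in the left-out library, was 47.7% over 6 sites with GFP and 60% over 5 with 7 aa FAM46C. It was 50% for both with 10 and 5 reads and 45.5% and 48.5% with 40 and 20 reads, over 1 and 2 sites. No site met the first minimum in the other 3 libraries. The edited share of all left-out reads was 54.8% over the 5 libraries together. It was 48.8% and 51.3% with at least 5 and 10 reads in the others, 59.7% at sites without a neighbour within 100 nt and 47.4% to 53.8% without 1 library. These alternatives were chosen after seeing the data. No paired analysis was possible because each fusion had 1 library and the replicate number names only that library. Depth limits all of this, since 70.9% of the sites rest on 2 to 4 reads.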
